A study of Mus musculus with 5 samples.

Results

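The early transcriptional response of primed pluripotent cells to bone morphogenetic protein 4 (BMP-4) was described from a pair of RNA sequencing libraries, 1 of mouse epiblast stem cells given BMP-4 for 1.5 h and 1 of the same kind of cells left untreated. Epiblast stem cells (EpiSCs) are cultured counterparts of the postimplantation epiblast. These were derived in culture from the E14 embryonic stem cell (ESC) line, so they stand for 1 line, and they grew in N2B27 medium with FGF2 at 12 ng/ml and Activin A at 20 ng/ml on plates coated with serum. Both libraries share those factors, and the treated one also had BMP-4 at 10 ng/ml. A library of such EpiSCs after 24 h of BMP-4, and libraries of E14 ESCs in LIF with serum and in LIF with BMP-4, complete the series of 5 libraries and are used here only to place single genes. Of 23951 genes in the deposited table, 10618 entered the comparison: those whose values averaged 1 FPKM or more over both libraries (FPKM, fragments per kilobase of transcript at a fixed depth, a level corrected for length) and that had a status of OK in each, without small RNAs recognised by the start of their names. Each condition had 1 library, so no difference was tested and no p-value is given.

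BMP-4 binds a pair of serine/threonine kinase receptors, type I and type II, which phosphorylate Smad1, Smad5 and Smad9. These enter the nucleus with Smad4 and bind regulatory DNA of target genes, among which the Id genes are the best known. Id proteins are helix-loop-helix proteins without a DNA-binding region that hold E proteins and their partners away from DNA. Primed cells depend on Activin or Nodal signals, which act through Smad2 and Smad3, and BMP is known to direct such cells towards posterior streak, mesodermal and extraembryonic fates.

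Differences below are of log2(FPKM + 1), 1.5 h minus untreated, a scale that understates the change of low genes. Genes counted as higher or lower differed by 2-fold or more on it. Few genes passed that size. Of the 10618 genes, 14 were higher (0.132%) and 8 lower (0.0753%), and 10518 (99.1%) lay within 1.5-fold, with 58 at least 1.5-fold higher (0.546%) and 42 at least 1.5-fold lower (0.396%). Across these genes, which are not replicates, the Pearson correlation of the log2 values was 0.995 and the median difference was -0.01. By the same rule, 61 of 10641 genes were higher after 24 h and 42 lower, against the same untreated library. Of the 14 higher genes, 6 were under 1 FPKM in untreated cells and passed the filter through their treated value, and 4 of the 8 lower genes passed it through their untreated value. The members nearest the filter were Pdk2 inside, with a mean of 1.0011 FPKM and a difference of -0.20, and Nkapl outside, with a mean of 0.9998 FPKM and a difference of -0.08.

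**Figure D1:**
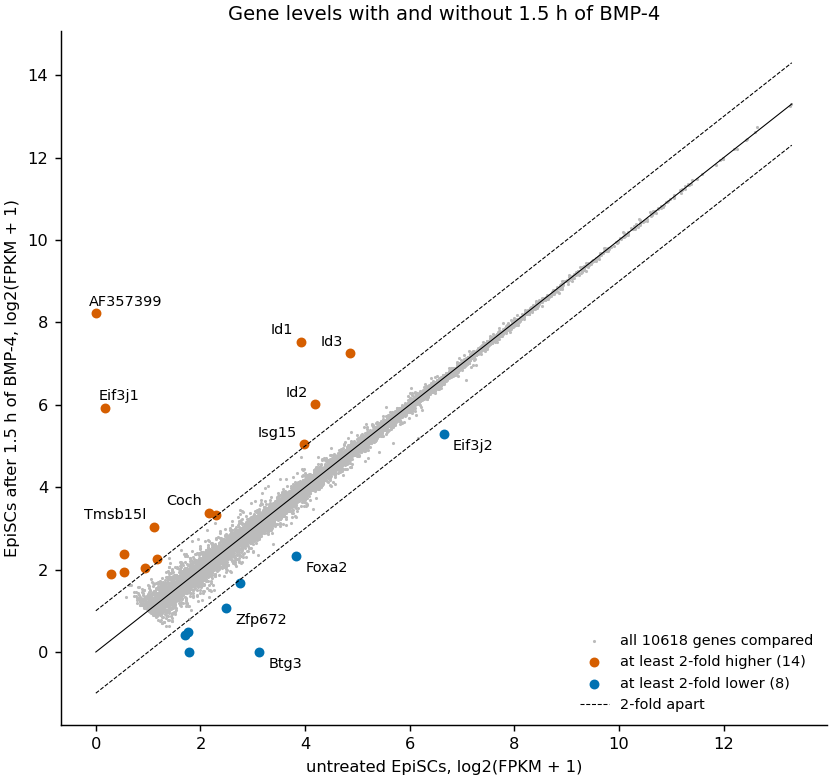
Levels of 10618 genes in untreated EpiSCs (x axis) and after 1.5 h of BMP-4 (y axis), both as log2(FPKM + 1) and 1 library each. Grey points are all genes compared, orange and blue points the 14 higher and 8 lower genes, the solid line marks equal levels and the dashed lines 2-fold. Id1, Id3 and Id2 stand well above the band of grey points, which narrows as the level increases.

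The spread of differences narrowed with the level. For 3198 genes with a mean of 1 to 5 FPKM, the middle 98% of differences ran from -0.59 to 0.59, and for 2778 genes at 20 to 100 FPKM from -0.27 to 0.26. In that range of 20 to 100 FPKM, 5 genes were at least 1.5-fold higher (Id1, Id2, Id3, Isg15 and Eif3j1) and 3 at least 1.5-fold lower (Lefty1, Eif3j2 and Akr1b3). Eif3j1 and Eif3j2 share a locus in the file, and Akr1b3 shares one with Gm6644, as described further on. Steps of whole reads in low values put the depth at about 9.79 M reads for the untreated library and 10.9 M for the treated one, with 1 read worth 1.12 times as much in the former. Intervals given with a ratio of FPKM below are exact 95% binomial intervals on read numbers estimated from that depth and the transcript length. They cover counting error only. The intervals deposited with each FPKM value, given in parentheses after it for some genes, are those of the authors' software. The deposited intervals were wider for Id1, Id3, Foxa2, Lefty1 and Isg15, the genes for which both kinds are printed. Of all genes compared, only 3 (Id1, Id3 and Eif3j1) had deposited intervals that were apart between the libraries. For every other gene given with a counting interval below, the deposited intervals overlapped, as for Acvr1 (0.641 to 11.3 untreated and 1.72 to 15.1 after 1.5 h).

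The check of the labelled cell type used 10 epiblast markers, all of which were compared and lay within 2-fold. Pou5f1 stood at 1264 and 1242 FPKM, Dnmt3b at 403 and 394 FPKM, and Fgf5 at 133 and 96.2 FPKM in untreated and treated cells. Markers of naive ESCs summed to 4.83 and 4.65 FPKM over 8 genes, with Nr0b1 listed at 0 in both libraries. Markers of surface ectoderm and neural crest (7 genes, 0.565 and 1.10 FPKM) and of blood and endothelium (7 genes, 1.47 and 1.77 FPKM) were near 0. Trophoblast markers summed to 193 and 178 FPKM over 11 genes, of which the keratin genes Krt8 and Krt18 gave most, while Elf5 and Tpbpa were listed at 0 in both. Neural markers summed to 172 and 175 FPKM, mostly Nes, with Sox1 at 0.245 and 0.198 FPKM. Primitive endoderm markers summed to 18.6 and 19.3 FPKM, fibroblast markers to 30.2 and 29.4 FPKM, and germ cell markers to 10.6 and 10.9 FPKM. No marker of any list was 2-fold higher or lower among those compared. Of 15 reference genes compared, 15 lay within 2-fold (from -0.15 to 0.11), and the 10 most abundant genes of untreated cells differed by -0.03 to 0.11.

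The clearest differences were those of BMP targets, and the Id genes led them. Id1 (chromosome 2, 152561987 to 152563146 on mm9) had 14.1 FPKM (0.164 to 28.1) in untreated cells and was at 184 FPKM (87.2 to 281) after 1.5 h and 199 FPKM after 24 h. Its ratio of treated to untreated FPKM was 13.1 (11.0 to 15.5 by counting, from about 145 and 2107 reads), a difference of 3.62. Id3 (chromosome 4, 135699737 to 135701307) stood at 28.0 FPKM (5.27 to 50.8), at 151 FPKM (68.5 to 234) and at 192 FPKM, and its ratio at 1.5 h was 5.40 (4.80 to 6.04), a difference of 2.39. Both genes were low in the untreated library and high in each treated one, and their deposited intervals did not meet between untreated cells and 1.5 h. Id2 (chromosome 12, 25778664 to 25780957) stood at 17.3 FPKM (3.51 to 31.1), 64.0 FPKM (26.0 to 102) and 76.0 FPKM, with a ratio of 3.70 at 1.5 h and deposited intervals that overlapped. The order of the Id genes by level thus differed between the libraries. Id3 was the highest of the family in untreated cells, and Id1 after 1.5 h. The deposited intervals of Id1 and Id3 overlapped within each library. Id4, the remaining family member, was under the filter at 0.259 and 0.174 FPKM.

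The Id1 value at 1.5 h was also above those of the ESC libraries. ESCs held Id1 at 70.1 FPKM in LIF and serum and at 101 FPKM in LIF and BMP-4, and Id3 at 24.4 and 40.0 FPKM. Untreated EpiSCs were thus below both ESC libraries for Id1, and between them for Id3, and EpiSCs after 1.5 h were above both ESC libraries for each of these genes. These are levels in single libraries of cells kept in different media. The deposited interval of Id1 at 1.5 h includes its level in ESCs in LIF and BMP-4. That of Id3 in untreated EpiSCs includes its level in both ESC libraries.

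The homeobox gene Msx2, a classical BMP target (chromosome 13, 53562250 to 53568149), stood at 1.25 FPKM untreated, 3.79 FPKM after 1.5 h and 8.88 FPKM after 24 h. Its ratio at 1.5 h was 3.03 (1.99 to 4.69), a difference of 1.09. Its relative Msx1 (chromosome 5, 38211730 to 38215824) stood at 1.64, 3.86 and 11.2 FPKM, with a ratio of 2.36 (1.53 to 3.66) and a difference of 0.88, just under 2-fold on the scale used. Msx1os, an antisense RNA given the same span in the file, stood at 3.89, 9.05 and 26.6 FPKM, a difference of 1.04. Reads of Msx1 and Msx1os cannot be told apart here, because the libraries are directional but whether the counting used strand is not stated. All of these genes were lowest without BMP-4 and highest at 24 h, whereas each Id gene had most of its 24 h level by 1.5 h.

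Further BMP targets stood within 2-fold. Gata2, a transcription factor of blood and trophoblast, stood at 0.495 and 1.52 FPKM (ratio 3.08, 1.77 to 5.85), and the inhibitory Smad gene Smad6 at 0.850 and 1.89 FPKM. Hey1, a bHLH repressor gene, stood at 3.25 and 5.43 FPKM (ratio 1.67, 1.26 to 2.24). Smad7, the other inhibitory Smad, stood at 20.2 and 25.3 FPKM, Tsc22d1 at 55.1 and 58.2 FPKM, the ERK phosphatase gene Dusp9 at 18.6 and 19.5 FPKM, and the pseudoreceptor gene Bambi at 6.57 and 6.44 FPKM (ratio 0.980, 0.836 to 1.14). In number, 12 of 20 listed targets were compared, of which 4 were higher (33.3%, against 0.132% of all genes compared), 0 lower and 8 at least 1.5-fold higher (66.7%, against 0.546%). The list median was 0.70, against -0.01 over all genes compared. Because the list was written with earlier results of these data known, these shares are a description only. Gata2 and Smad6 reached the filter only through their treated values, and over the 19 targets with any signal the median was 0.31. The targets under the filter stayed under 1 FPKM in both libraries, among them Gata3 (0.156 and 0.503 FPKM), the BMP antagonist gene Nog (0.164 and 0.392 FPKM), Smad9 (0.0182 and 0.130 FPKM), Atoh8 (0.569 and 0.705 FPKM), Dlx3 (0.235 and 0.175 FPKM) and Hand1 (0.111 and 0.0498 FPKM), and Dlx5 was listed at 0 in both.

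**Figure D2:**
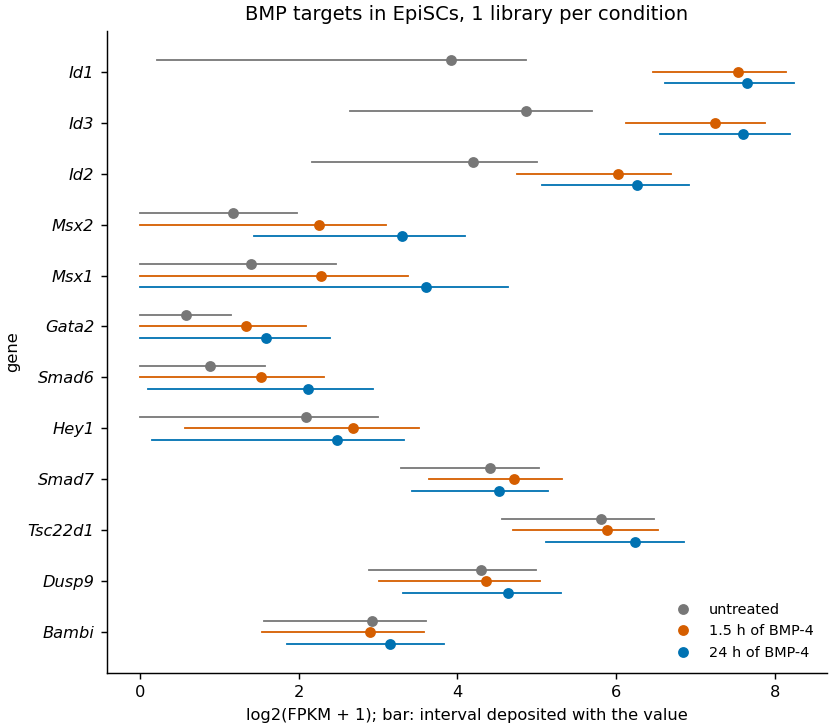
The 12 BMP targets compared, ordered by their difference at 1.5 h, as log2(FPKM + 1) in untreated EpiSCs and after 1.5 h and 24 h of BMP-4 (x axis, points, 1 library each), with the deposited intervals as bars. Id1 and Id3 show bars that are apart between untreated cells and 1.5 h, and the other 10 genes show bars that overlap.

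The 250 bases before the start of Id2, Id3 and Msx2 are shown because these targets were higher together at 1.5 h. They come from RefSeq on the GRCm38.p6 build, another build than the mm9 positions of the table, and 17 of the 22 genes that were higher or lower had an entry. Id1, which was also higher, had no entry and is not shown. The entries lie on chromosome 12 from 25096093 to 25096342 on the minus strand for Id2, on chromosome 4 from 136143572 to 136143821 on the plus strand for Id3, and on chromosome 13 from 53472781 to 53473030 on the minus strand for Msx2. Capitals mark GGCGCC, a palindrome known from BMP-responsive elements, and CAGAC or its reverse complement GTCTG, a Smad-binding sequence, both searched on both strands.
Id2: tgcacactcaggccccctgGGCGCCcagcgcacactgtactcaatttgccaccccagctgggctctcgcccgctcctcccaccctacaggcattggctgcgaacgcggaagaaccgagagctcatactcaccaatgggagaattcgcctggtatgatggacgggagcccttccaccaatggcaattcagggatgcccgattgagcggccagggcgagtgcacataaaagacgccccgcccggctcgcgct
Id3: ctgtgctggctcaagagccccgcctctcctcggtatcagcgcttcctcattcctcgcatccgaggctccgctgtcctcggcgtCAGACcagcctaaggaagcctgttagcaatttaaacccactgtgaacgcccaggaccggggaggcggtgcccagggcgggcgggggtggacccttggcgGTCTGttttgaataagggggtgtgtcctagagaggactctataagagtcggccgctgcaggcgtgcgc
Msx2: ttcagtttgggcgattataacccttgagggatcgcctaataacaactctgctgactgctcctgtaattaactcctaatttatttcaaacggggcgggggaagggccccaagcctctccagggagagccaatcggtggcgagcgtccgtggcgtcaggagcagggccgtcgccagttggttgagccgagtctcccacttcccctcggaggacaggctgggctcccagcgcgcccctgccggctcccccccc
Id2 held 1 GGCGCC, which began 231 bases before the start, and Id3 held 2 matches of CAGAC, which began 167 bases (plus strand) and 68 bases (minus strand) before it. No match of either sequence was present in these letters of Msx2. Over all 32851 RefSeq windows of this length, 9.59% held GGCGCC and 42.2% held CAGAC, so such matches are common.

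The machinery that receives the signal was present and, like most genes compared, close to its untreated level. Of the receptors and Smads, 13 of 17 listed genes were compared and 0 were higher or lower (median 0.05, from -0.25 to 0.43). Of the 13, 10 were above their untreated value, against 47.6% of all genes compared. The type I receptor gene Bmpr1a stood at 20.7 and 20.3 FPKM, Acvr1 at 5.97 and 8.39 FPKM (ratio 1.40, 1.15 to 1.70), and the type II receptor gene Bmpr2 at 2.09 and 2.42 FPKM. Acvr1 had the largest difference of the list, 0.43. The type II receptor genes shared with Activin, Acvr2a and Acvr2b, stood at 3.36 and 3.81 FPKM and at 6.48 and 6.59 FPKM. Smad1 stood at 10.4 and 10.8 FPKM, Smad5 at 8.51 and 8.80 FPKM and the common Smad4 at 33.0 and 29.9 FPKM, and the ubiquitin ligase genes Smurf1 and Smurf2 at 8.83 and 9.44 FPKM and at 12.7 and 13.5 FPKM. The phosphatase gene Ppm1a stood at 49.6 and 52.5 FPKM, the corepressor gene Ski at 18.7 and 19.4 FPKM and the coreceptor gene Rgmb at 2.94 and 2.32 FPKM. Bmpr1b, Rgma, Acvrl1 and Eng were under 1 FPKM in both libraries.

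Of 22 listed ligands and antagonists, 8 were compared, with 0 higher or lower (median -0.17, from -0.43 to 0.28). Of the 8, 6 were below their untreated value, against 52.4% of all genes compared. Bmp7 stood at 7.68 and 7.53 FPKM and was the only BMP ligand gene compared. Bmp4 itself stood at 0.263 and 0.283 FPKM, Bmp2 at 0.783 and 0.401 FPKM and Bmp5 at 0.810 and 0.544 FPKM. Among antagonists, Fst, which encodes follistatin, a protein that binds Activin more tightly than BMP, stood at 28.2 and 21.3 FPKM, Cer1 at 35.0 and 29.1 FPKM, Chrd at 3.64 and 2.46 FPKM, Dand5 at 2.68 and 1.90 FPKM and Nbl1 at 1.51 and 2.06 FPKM. Twsg1 stood at 21.3 and 20.1 FPKM, and Fstl1 at 33.0 and 33.2 FPKM. Bmper, a secreted BMP modulator under the filter, stood at 0.235, 0.701 and 2.02 FPKM in untreated cells and after 1.5 h and 24 h.

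The partners that Id proteins act on were measured too. Of the bHLH factors and E proteins, 8 of 19 were compared, with 0 higher or lower (median -0.01). The E protein genes Tcf3, Tcf12 and Tcf4 stood at 29.8 and 28.6 FPKM, 10.7 and 11.0 FPKM, and 6.50 and 6.27 FPKM. Tcf15, a bHLH gene of epiblast priming and paraxial mesoderm, had the largest difference of the list at 0.67 and stood at 10.5, 17.3 and 7.75 FPKM in untreated cells, after 1.5 h and after 24 h (ratio at 1.5 h 1.65, 1.29 to 2.12). Its value was thus highest in the 1.5 h library. The repressor genes Hes1 (34.3 and 23.9 FPKM, ratio 0.697, 0.607 to 0.796) and Bhlhe40 (12.9 and 8.86 FPKM) stood lower in treated cells, within 2-fold.

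Foxa2 was the lower gene with the highest untreated level among those with no overlapping gene. Foxa2 (chromosome 2, 147868613 to 147872705), a forkhead factor of the node and definitive endoderm, stood at 13.2 FPKM (3.20 to 23.2) untreated, 4.06 FPKM (0 to 8.14) after 1.5 h and 1.86 FPKM after 24 h. Its ratio at 1.5 h was 0.307 (0.239 to 0.389 by counting, from about 272 and 93 reads), a difference of -1.49, with overlapping deposited intervals. In bulk RNA, fewer cells of a type and less RNA per cell cannot be told apart. The other genes of the anterior streak and endoderm list were within 2-fold, and 13 of 16 were compared, with 0 higher, 1 lower and 10 below their untreated value (median -0.26, against -0.01 over all genes, of which 47.6% were above 0). Lhx1 stood at 13.2 and 8.76 FPKM, Foxa1 at 3.59 and 2.17 FPKM (ratio 0.604, 0.448 to 0.820), Gsc at 36.0 and 25.3 FPKM (ratio 0.701, 0.608 to 0.808), and Dkk1 at 2.32 and 1.70 FPKM. The endoderm genes Sox17, Hhex and Gata6 stood at 3.63 and 3.72 FPKM, 17.2 and 16.3 FPKM, and 1.89 and 1.83 FPKM, and Gata4 at 1.59 and 2.56 FPKM. Values for node and endoderm genes were uneven, with Foxa2 at the lowest difference and Sox17 and Hhex near their untreated levels.

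Lefty1, a secreted Nodal antagonist and Nodal target (chromosome 1, 182865170 to 182868532), stood at 69.9 FPKM (31.1 to 109) untreated, 35.7 FPKM (13.1 to 58.4) after 1.5 h and 8.42 FPKM after 24 h. Its ratio at 1.5 h was 0.511 (0.462 to 0.563), and its difference was -0.95, just inside 2-fold. Lefty2, its close relative, stood at 4.59 and 5.19 FPKM. Nodal stood at 27.9 and 21.3 FPKM (ratio 0.764, 0.673 to 0.860), and the coreceptor gene Tdgf1 at 68.1 and 69.5 FPKM. Over the Nodal and Activin targets, 13 of 14 were compared and 0 were higher or lower (median -0.11, from -0.95 to 0.31). Of the 13, 8 were below their untreated value, against 52.4% of all genes compared. Skil, which encodes a repressor of Smads, stood at 30.7 and 37.2 FPKM, Pmepa1 at 16.5 and 15.9 FPKM, and Foxh1, the DNA-binding partner of Smad2, at 20.6 and 22.5 FPKM. Lefty1 had the lowest difference of the list. The 1.5 h and 24 h values share 1 untreated library.

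**Figure D3:**
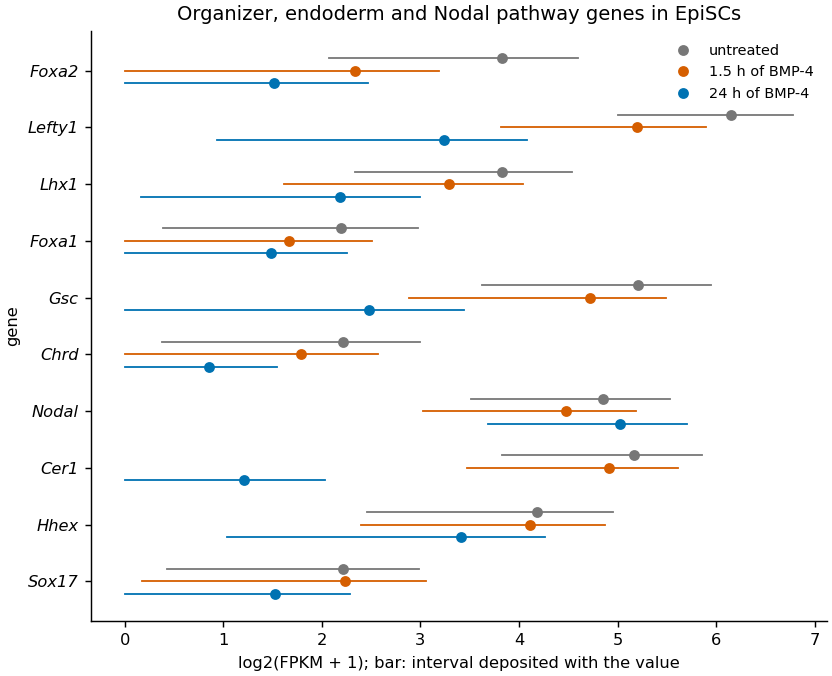
Organizer, endoderm and Nodal pathway genes named in the text, as log2(FPKM + 1) in untreated EpiSCs and after 1.5 h and 24 h of BMP-4 (x axis, points, 1 library each), with the deposited intervals as bars. Foxa2 and Lefty1 show the lowest 1.5 h points relative to the untreated points, Sox17 and Hhex show 1.5 h points beside the untreated ones, and all bars overlap between untreated cells and 1.5 h.

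Genes of the primitive streak, the tissue of origin of mesoderm, were within 2-fold of their untreated levels after 1.5 h. So were 10596 of all 10618 genes compared. Most streak genes compared were below their untreated levels. Of 17 genes 9 were compared, with 0 higher or lower and 7 below their untreated value, against 52.4% of all genes compared. The list median was -0.26 (from -0.54 to 0.48), against -0.01 over all genes. T (Brachyury) stood at 11.9 FPKM untreated, 10.6 FPKM after 1.5 h and 89.2 FPKM after 24 h. The posterior homeobox gene Cdx2 stood at 1.55, 1.48 and 13.7 FPKM, and Sp5, a Wnt target, at 9.25, 6.45 and 20.6 FPKM. These genes were thus high in the 24 h library and not in the 1.5 h library. Wnt3, the Wnt ligand of the early streak, stood at 12.6, 18.0 and 23.9 FPKM (ratio at 1.5 h 1.43, 1.25 to 1.62), and the posterior gene Evx1, under the filter, at 0.246, 0.945 and 6.01 FPKM. Eomes stood at 23.9 and 19.7 FPKM, Mixl1 at 2.80 and 1.62 FPKM, Nkx1-2 at 3.49 and 2.08 FPKM and Fgf8 at 61.2 and 61.4 FPKM. Of the Wnt targets, 11 of 15 were compared and 0 were higher or lower (median 0.07), with Axin2 at 7.31 and 6.99 FPKM, Nkd1 at 2.26 and 2.83 FPKM and Lef1 at 5.34 and 6.15 FPKM.

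Pluripotency genes were within 2-fold of untreated levels, as were 10596 of all 10618 genes compared. Of the 14 genes of core pluripotency 14 were compared, and 0 were higher or lower (median -0.02, from -0.30 to 0.22), with Sox2 at 77.2 and 90.2 FPKM, Nanog at 64.7 and 64.8 FPKM, and Sall4 at 14.7 and 16.5 FPKM. The primed epiblast list had 14 members compared, with 0 higher or lower and 11 below their untreated value, against 52.4% of all genes compared (median -0.09, against -0.01). Zic2, a zinc finger gene of the epiblast and neural plate, had the lowest difference at -0.56 and stood at 41.5 and 27.8 FPKM (ratio 0.670, 0.607 to 0.736), Zic5 at 14.8 and 10.6 FPKM, and Otx2 at 30.1 and 28.4 FPKM. The naive gene Klf2 stood at 2.28 and 1.73 FPKM, Klf5 at 6.07 and 5.10 FPKM and Klf4 at 0.497 and 0.593 FPKM. Of 16 naive genes 4 were compared, with 0 higher or lower (median -0.16). Those 4 were below their untreated value, against 52.4% of all genes compared.

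Genes of other fast responses were within 2-fold of their untreated levels, as were 10596 of all 10618 genes compared. Of the immediate early genes 21 of 25 were compared and 0 were higher or lower (median -0.01, from -0.37 to 0.21). Fos stood at 3.19 and 3.21 FPKM, Egr1 at 6.49 and 6.08 FPKM, Ier2 at 120 and 124 FPKM, Jun at 9.93 and 10.8 FPKM and Myc at 38.9 and 33.2 FPKM. Feedback genes of ERK signalling gave a median of -0.09 over 14 genes, with Dusp6 at 68.4 and 72.4 FPKM, Spry4 at 9.99 and 7.58 FPKM, Dusp5 at 1.69 and 2.75 FPKM and Spred2 at 10.9 and 14.4 FPKM. Genes of the Notch pathway gave a median of 0.10 over 12 genes, with Nrarp at 4.13 and 5.29 FPKM and Notch3 at 13.7 and 14.9 FPKM. The medians were -0.08 for LIF and STAT3 genes (9 compared), 0.01 for stress genes (17 compared) and -0.01 for p53 targets (13 compared). EMT and adhesion genes gave -0.06 over 8 genes, with Cdh1 at 135 and 128 FPKM and Vim at 461 and 420 FPKM. For cell cycle genes and Myc family members, the median was 0.00 over 18 genes, with Mycn at 28.6 and 22.6 FPKM and Ccnd2 at 1.89 and 2.51 FPKM. Over 19 lists, 212 genes were compared, of which 3 are also on the BMP target list (Hey1, Smad7 and Dusp9). These 19 leave out BMP targets, cell type markers, histones, ribosomal proteins, mitochondrial genes and the interferon genes listed later. At least 1.5-fold higher were 3 of the 212 (1.42%, against 0.546% of all genes compared), Tcf15, Chac1 and Hey1. At least 1.5-fold lower were 3 (1.42%, against 0.396%), Foxa2, Lefty1 and Socs3. Chac1, a glutathione-degrading enzyme gene of the stress response, stood at 0.760 and 1.98 FPKM, and Socs3, a feedback inhibitor of STAT3, at 2.32 and 1.17 FPKM. Chac1 reached the filter only through its treated value.

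**Figure D4:**
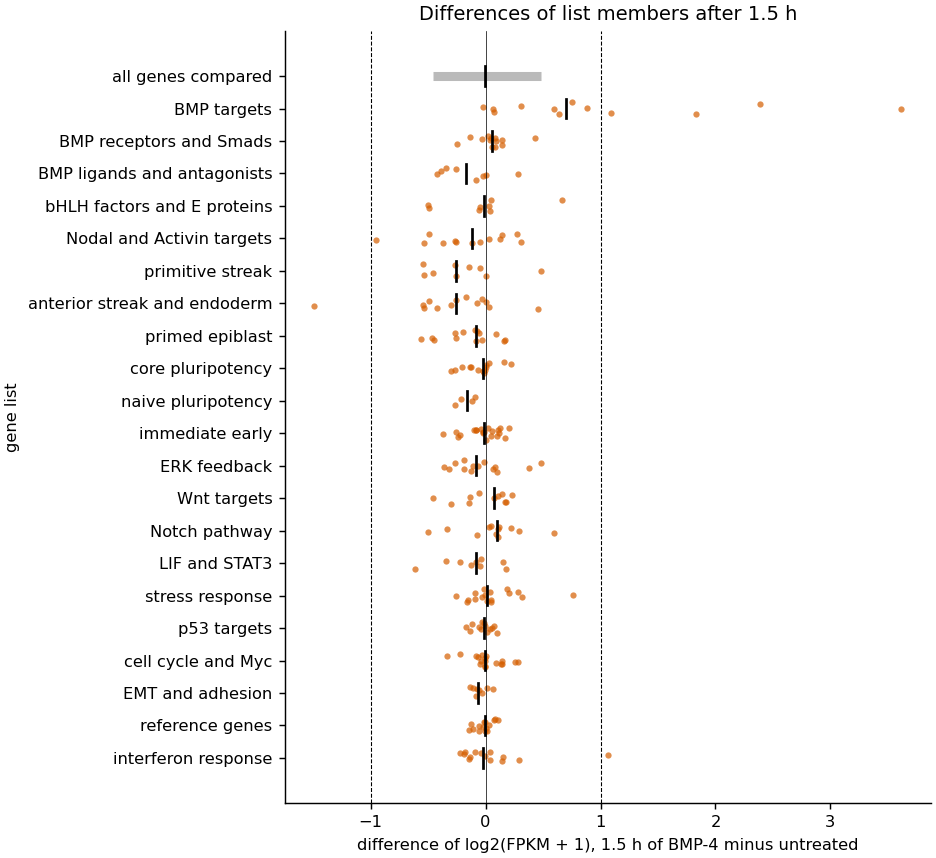
Differences of log2(FPKM + 1), 1.5 h minus untreated (x axis), of the genes compared on each list (y axis, 1 point per gene). Black ticks are medians, the grey bar spans the middle 98% of all 10618 genes, dashed lines mark 2-fold, and the interferon genes were listed with their values known. The BMP targets reach 3.62, and outside that list Foxa2 and Isg15 lie beyond a dashed line.

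Among the remaining higher genes, Isg15, a ubiquitin-like protein gene induced by interferon (chromosome 4, 155573533 to 155574927), stood at 14.8 FPKM (0.222 to 29.3) untreated, 32.0 FPKM (6.16 to 57.8) after 1.5 h and 45.3 FPKM after 24 h. It was listed at 0 in ESCs in LIF and serum and stood at 0.189 FPKM in ESCs in LIF and BMP-4. The ratio at 1.5 h was 2.16 (1.73 to 2.74), a difference of 1.06. A list of 25 interferon response genes, chosen after that value was seen, had 14 members compared. Isg15 alone was higher (7.14%, against 0.132% of all genes compared), a share that the choice of list made certain. The list had 0 lower genes and a median of -0.02. Bst2 stood at 107 and 110 FPKM, Ifitm1 at 17.7 and 15.0 FPKM, Irf1 at 14.7 and 16.4 FPKM, and Ifit1 and Irf7 were under 0.1 FPKM in both libraries. Isg15 had the largest difference of that list. Its promoter is shown because it holds a sequence known from interferon-responsive genes. The 250 bases before its start (RefSeq, GRCm38.p6, chromosome 4, 156200819 to 156201068, minus strand) carry 3 overlapping matches of GAAA, any 2 bases and GAAA, in capitals, which began 78, 72 and 66 bases before the start. On both strands, 2.98% of 32851 windows hold that sequence.
Isg15: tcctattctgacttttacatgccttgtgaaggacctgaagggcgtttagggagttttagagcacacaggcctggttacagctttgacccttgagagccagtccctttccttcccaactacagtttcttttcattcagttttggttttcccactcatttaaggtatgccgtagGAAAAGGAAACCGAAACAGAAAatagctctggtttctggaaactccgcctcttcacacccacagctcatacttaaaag

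Further protein-coding genes that overlap no other gene in the file were higher as well. Coch, which encodes the extracellular protein cochlin, stood at 3.47, 9.42 and 14.0 FPKM in untreated cells, after 1.5 h and after 24 h (ratio at 1.5 h 2.72, 2.12 to 3.50). Fam181b stood at 0.920, 3.09 and 2.24 FPKM (ratio 3.36, 1.96 to 5.96, from about 18 and 67 reads). Tph1, which encodes tryptophan hydroxylase of serotonin synthesis, stood at 0.457, 4.19 and 0.512 FPKM, so that only the 1.5 h library was high, and its deposited interval there ran from 0 to 11.3. Just under 2-fold were Cdh6, a cadherin gene, at 0.543, 2.08 and 1.31 FPKM, and the hyaluronan synthase gene Has2, at 3.82, 7.71 and 8.97 FPKM (ratio 2.02, 1.67 to 2.45), both picked after their values were seen. Vrtn, a gene that sets the number of vertebrae in pigs, stood at 14.1, 25.6 and 27.2 FPKM (ratio 1.81, 1.61 to 2.04, difference 0.81) and was listed at 0 in ESCs in LIF and serum. Coch, Has2 and Vrtn were high in both treated libraries, and Tph1 was high in 1 of them.

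Of the lower genes, 3 besides Foxa2 were protein-coding and overlapped no other gene, and each was under 5 FPKM in both libraries. Zfp672, a zinc finger gene, stood at 4.64, 1.09 and 1.96 FPKM (ratio at 1.5 h 0.235, 0.158 to 0.349). Krtdap, a gene of keratinocytes, stood at 2.28, 0.340 and 0.560 FPKM, from about 9 reads and 1 read, with a ratio of 0.149 (0.00227 to 0.718). Tsacc, a testis co-chaperone gene, stood at 2.42 FPKM, from about 13 reads, was listed at 0 after 1.5 h and stood at 1.02 FPKM after 24 h. The lncRNA BC051226 stood at 2.38, 0.400 and 0.876 FPKM. The deposited intervals overlapped for Zfp672, Krtdap and BC051226. An exact 0, as for Tsacc, can be a failed estimate, although the status of Tsacc was OK in both libraries.

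Several of the largest differences belonged to genes that share their place in the file with another gene. Eif3j1, a translation initiation factor subunit gene, stood at 0.135 FPKM (0 to 2.03) untreated, 60.1 FPKM (20.3 to 99.8) after 1.5 h and 0.0997 FPKM after 24 h, while Eif3j2 stood at 99.5, 38.2 and 93.9 FPKM. Both are given the span chromosome 2, 121854316 to 121944122, and their sum was 99.7, 98.3 and 94.0 FPKM, so the sum differed by -0.02 at 1.5 h. Btg3, an antiproliferative gene, stood at 7.74 FPKM untreated, 0.00156 FPKM after 1.5 h and 0.00136 FPKM after 24 h, and its sum with Gm7334, an overlapping pseudogene, was 53.5, 51.6 and 47.1 FPKM (difference -0.05 at 1.5 h). The thymosin gene Tmsb15l stood at 1.16, 7.25 and 2.48 FPKM, and the sum with Tmsb15b1 and Tmsb15b2 was 34.6, 39.9 and 39.9 FPKM (difference 0.20). Akr1b3, an aldose reductase gene, stood at 50.2 and 32.9 FPKM, and its sum with Gm6644 at 159 and 151 FPKM. In each of these loci the sum was within 1.5-fold between the libraries, and how reads were divided between the genes was not tested. For Tmsb15l, most of its difference in FPKM remained in the sum, which its relatives dominate, so a sum within 1.5-fold shows no exchange between them.

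**Figure D5:**
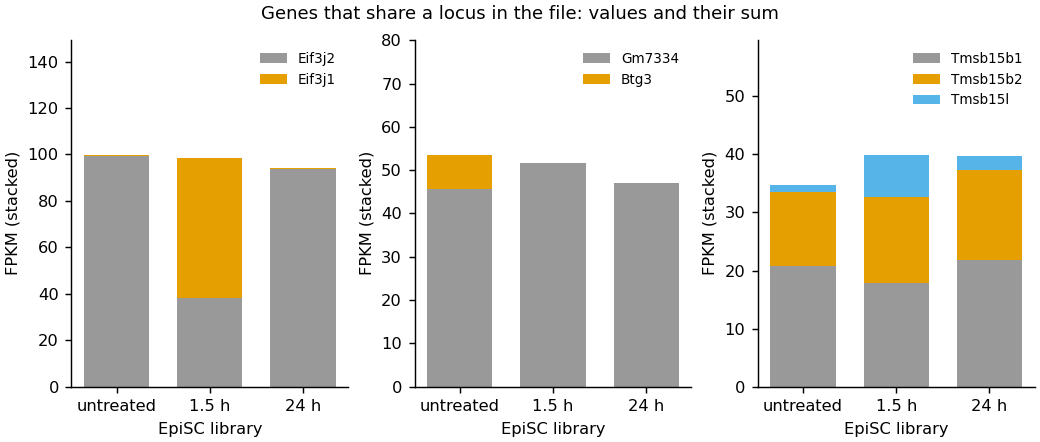
Stacked FPKM (y axis) of genes that overlap in the file, in untreated EpiSCs and after 1.5 h and 24 h of BMP-4 (x axis, 1 library each): Eif3j1 with Eif3j2, Btg3 with Gm7334, and Tmsb15l with its relatives. The sums of Eif3j1 with Eif3j2 (99.7, 98.3 and 94.0) and of Btg3 with Gm7334 differ little between libraries, while the parts differ. The sum with Tmsb15l is 34.6 untreated and 39.9 after 1.5 h, so most of the Tmsb15l difference remains in it.

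The largest difference of all belonged to AF357399, a small nucleolar RNA of the Rps16 locus that the name rule did not take out. It stood at 298 FPKM (0 to 9466) after 1.5 h and was listed at 0 in untreated cells and after 24 h. The other higher and lower genes were predicted lncRNAs or pseudogenes, 2 of them higher and 1 lower. Without genes that overlap another gene or are not protein coding, a choice made after the values were seen, 8 genes were higher and 4 lower. The 8 were Id1, Id2, Id3, Msx2, Isg15, Coch, Fam181b and Tph1, and the 4 were Foxa2, Zfp672, Krtdap and Tsacc.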

How the data were processed

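Per the labels' protocols, poly(A) RNA was purified on oligo-dT beads, decapped and fragmented, and directional libraries were prepared. The authors deposited 1 table of FPKM per gene, with lower and upper bounds and a status, made with TopHat and Cufflinks 2.0.13 (Picard and SAMtools are also named) on mm9, per the submitters' processing notes. For the annotation, the strand setting and the scaling between libraries, nothing is stated. Starts in the file count from 0 (8129 of 22460 RefSeq symbols have the same span under that reading, 515 under the other) and are printed from 1.

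Of 10665 genes averaging 1 FPKM or more, 43 with names starting Mir, Snor, Scarna, Rnu or Rny and 4 with a failed status (Cnot1, Dhx15, Dnajb6 and 4930513N10Rik) were left out. Differences of log2(FPKM + 1) were computed with Python 3.11.15 and pandas 2.3.3, and the functions were checked on simulated data with known folds. With 1 library a condition there was no test.

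Depth came from the most frequent FPKM ratio of 2582 genes under 0.5 FPKM in both libraries (528 at that ratio) and from genes with 1 transcript in GENCODE M21. Read numbers are approximate, and given only where coding transcript lengths differ by under 1.5-fold. Promoters come from RefSeq.

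The members and lists were chosen with earlier results of these data known. Named genes are those at least 2-fold apart, those 1.5-fold apart at 20 FPKM or more, from each list at most 6 on either side, all BMP genes listed, Pou5f1, Sox2, Nanog, Klf2, Klf4 and Klf5, and genes that share a locus with one of these. Predicted genes are given as counts, and further list members were named with their values known. Alternatives were other pseudocounts, filters and scalings. The lists of mitochondrial genes (0 found) and of histones (11 compared, median -0.05) and ribosomal proteins (96 compared, median 0.00) held 0 genes 2-fold apart. Of the 11 histone genes, 2 were at least 1.5-fold higher (18.2%, against 0.546% of all genes compared). At least 1.5-fold lower was 1 of the 11, against 0.396% of all genes compared. Those 11 were low, at 0.590 to 12.7 FPKM in untreated cells, and 32 of 67 listed histone genes were at 0 there.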

Additional observations from a re-analysis of the deposited data

How the results depend on the processing

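No paired analysis was possible because no condition had more than 1 library. The number of genes 2-fold apart depended on how low values were treated. Against 14 higher and 8 lower genes, a pseudocount of 0.1 gave 30 and 24, a pseudocount of 5 gave 5 and 3, a mean of at least 5 FPKM gave 8 and 2 (80.0% higher, against 63.6%), and counting only genes with deposited intervals apart gave 3 and 0 (100% higher). With no filter the counts were 20 and 13, and without overlapping or noncoding genes, an alternative added after the data were seen, 8 and 4. Scaling to the same upper quartile and centring on the median each gave 15 and 8. As reported and under these scalings and both pseudocounts, 5 of the 14 higher genes (Id1, Id2, Id3, Eif3j1 and AF357399) and 3 of the 8 lower genes (Foxa2, Eif3j2 and Btg3) kept a 2-fold difference. The median of BMP targets was 0.70, and 1.13 and 0.30 with pseudocounts of 0.1 and 5, 0.31 with no filter (19 genes) and 0.31 at a mean of at least 5 FPKM (7 genes). The 3 genes with deposited intervals apart were Id1, Id3 and Eif3j1. Summed over its locus, Eif3j1 went from 5.75 to -0.02 and Eif3j2 from -1.36 to -0.02. Likewise, Btg3 went from -3.13 to -0.05. AF357399 went from 8.22 to 0.32, but its sum with the abundant Rps16 was not level, at 1109 FPKM untreated and 1386 FPKM after 1.5 h. 

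Without replicates the spread between cultures is unknown, and the deposited upper bounds lay a median of 111% above the value at 1 to 5 FPKM in both libraries.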

Other observations

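Values outside the comparison are given without explanation. Hprt, a purine salvage gene that is deleted in E14TG2a, a widely used subline of E14, stood at 0.577 FPKM in untreated EpiSCs and 0.811 FPKM after 1.5 h, and at 0.857 and 0.544 FPKM in ESCs in LIF with serum and in LIF with BMP-4. Of the 43 small RNAs left out by name, 58.1% were 2-fold apart, 12 higher and 13 lower. Of the 10618 genes compared, 0.132% were higher and 0.0753% lower. Among the 43, 8 were listed at 0 in untreated cells and 9 after 1.5 h. Of 23951 genes in all, 11 that were not small RNAs and had a status of OK lay beneath the filter and were 2-fold apart.

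Nfil3 and Epha4, picked after their values were seen, stood within 2-fold. Nfil3, a bZIP repressor gene, stood at 2.26, 4.01 and 4.15 FPKM in untreated EpiSCs, after 1.5 h and after 24 h (ratio at 1.5 h 1.77, 1.22 to 2.59). The ephrin receptor gene Epha4 stood at 2.58, 5.49 and 3.69 FPKM. The former was near its 24 h value by 1.5 h, and the latter was highest at 1.5 h.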
